A study of Mus musculus with 6 samples.

Results

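Cytosolic ribosomal protein genes were followed probe set by probe set in cultured mouse CD8+ T cells of the central memory kind (CM), set against the effector/effector memory kind (E/EM). Members were taken by name: every probe set whose single platform gene symbol starts with Rpl or Rps and a digit, or is Rpsa, Rplp0, Rplp1 or Rplp2, without S6 kinases and pseudogenes. This gave 71 of 36899 probe sets and 45 of 15964 singly named genes, of which the array type SubA held 49 probe sets, SubB 2 and SubC 20. Of the 45 genes, 23 encode large subunit proteins or their paralogues and 21 small subunit ones. The last, Rps19bp1, meets the naming rule but encodes a nuclear protein that binds Rps19 and is no part of the ribosome.

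The CM cells came from spleen and lymph node cells of female P14 mice, C57Bl/6 animals with a transgenic T cell receptor against a viral peptide, that were given the peptide for 2 days and IL-15 for the following 7 days, and were then sorted for high levels of a surface marker. The E/EM cells had the same origin and the same 2 days with peptide, then 7 days in IL-2, and were sorted for low levels of that marker. Both kinds therefore carry 1 fixed receptor and grew in culture, and the labels do not say how many mice were pooled. Each kind was hybridised once to each of 3 array types, so there are 6 arrays, no replicates and no p-values, and the values describe these arrays. Whether 1 RNA preparation went onto all 3 array types is not stated in the labels.

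A ribosome joins a small subunit, which holds the mRNA and its decoding site, to a large subunit, which forms peptide bonds and lets the growing chain out through a tunnel. Each subunit is built from ribosomal RNA and many different proteins. In mammals, most of their mRNAs begin with a C and a stretch of pyrimidines, the 5′ terminal oligopyrimidine (TOP) tract, through which the kinase complex mTORC1 controls their translation together. T cells enlarge their ribosome pool when they are activated, and IL-2 is known as a strong input to mTORC1 in CD8+ T cells.

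All values are deposited linear signals, and a ratio is the log2 of CM over E/EM signal, so a negative ratio means a lower signal in CM cells. A floor for each array type was set from bacterial control probe sets, at 31.28 on SubA, 88.12 on SubB and 194.34 on SubC. Above the floor on both arrays were 44 of the 71 probe sets. A further 8 were above it in E/EM cells alone, 1 in CM cells alone, and 18 in neither. Of all probe sets without controls, 66.9% in CM and 69.1% in E/EM cells were above the floor on SubA. The shares were 64.3% in CM and 68.7% in E/EM cells on SubB, and 47.0% in CM and 47.2% in E/EM cells on SubC. How many of all probe sets passed in 1 kind of cells alone was not counted, so the split is not read as particular to the members. By gene, 35 of 45 had a ratio, 6 had a bound only (Rpl10l, Rpl13, Rpl32, Rpl39, Rpl3l and Rps27l) and 4 had neither (Rpl35a, Rpl37, Rps15 and Rps15a). The probe sets of these 4 genes gave too little signal for a level, which says nothing about the genes' expression. In bulk RNA, fewer cells of a type and less RNA per cell cannot be told apart.

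The cells bore the markers of CD8 T cells on both arrays: all 7 were above the floor, with Cd8a at 5882.7 in CM and 5133.8 in E/EM cells. Genes that separate CM from E/EM cells were not among these 7. The summed signal of the 7 was 47629.7 in CM and 46935.7 in E/EM cells. Of the 4 B cell markers on the arrays 3 were measured, and the sums over all 4 were 509.9 in CM and 441.3 in E/EM cells. Of the 5 macrophage and monocyte markers 3 were measured, Lyz2 and Adgre1 lay under the floor, and the sums over all 5 were 253.6 in CM and 416.1 in E/EM cells. Cd4 had 131.7 in CM and 49.3 in E/EM cells, and Hba-a1, the 1 measured of 2 erythroid markers, had 109.5 in CM and 78.0 in E/EM cells. Their part in the ribosomal protein values was not tested. The 3′/5′ signal ratios lay between 1.06 and 1.17 for actin and between 0.794 and 0.903 for Gapdh over the 6 arrays, while those of 18S rRNA, given further on, were higher in CM cells on each array type.

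Relative to the other signals of each array, those of ribosomal protein transcripts differed little between CM and E/EM cells. The trimmed means of the arrays were nearly equal, so a difference in the amount of RNA per cell would not show in these ratios. Over the 35 measured genes the median log2 ratio was 0.03, against -0.00 over all 10946 measured genes, and 21 genes lay above 0 and 14 below. Within 1.5-fold were 32 of the 35 (91.4%), against 76.0% of all measured genes, and the SD over genes was 0.36, against 0.60. This narrower spread was clear only among strong SubA signals, given further on. Rplp2 alone was at least 2-fold lower in CM cells, 1 of 35 genes, where 5.61% of all genes were. None of the 35 was at least 2-fold higher, where 2.73% of all genes were. The count of 1 is close to the background share, and Rplp2 passed 2-fold by a margin of 0.01 on the log2 scale.

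**Figure D1:**
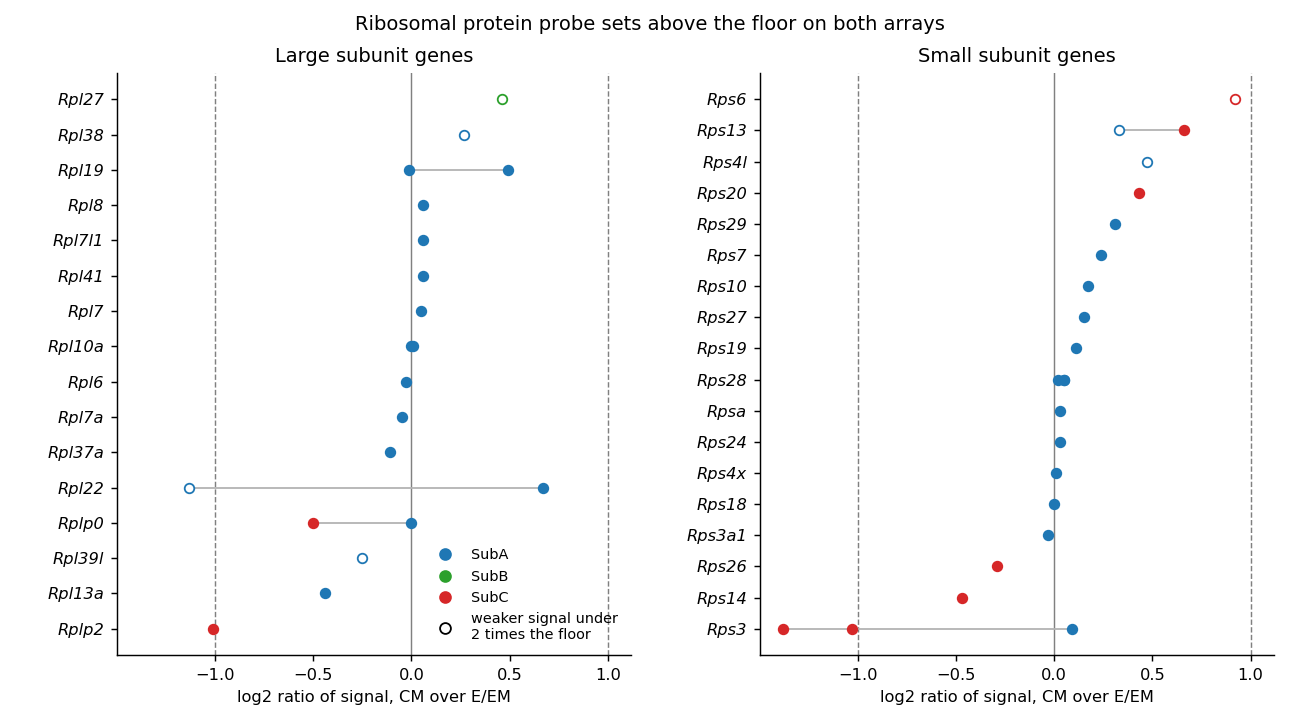
Log2 ratios, CM over E/EM (x axis), of the measured ribosomal protein probe sets, by gene, for 16 large and 18 small subunit genes (Rps19bp1 is left out). Points are single probe sets coloured by array type, open where a signal fell short of 2 times the floor, grey lines join the probe sets of a gene, and dashed lines mark 2-fold. Most SubA points sit near 0, and the probe sets past 2-fold are 3 SubC probe sets of Rplp2 and Rps3 and 1 weak SubA probe set of Rpl22.

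The 16 measured large subunit genes had a median of -0.01, with 8 above 0 and 8 below, and a range of -1.01 to 0.46. The 18 measured small subunit genes had a median of 0.08, with 13 above 0 and 5 below, and a range of -0.77 to 0.92. Of the large subunit genes 15 were within 1.5-fold and of the small subunit genes 16. The SD over genes was 0.33 for the large and 0.38 for the small subunit, and the difference between the medians was not tested.

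The promoters of member genes come from the RefSeq promoter table (GRCm38.p6) and are shown for 5 genes whose probe sets lay far from 0 or disagreed between array types, with Rpl38 added for its tract. Each line gives 50 bases before and 20 bases from the annotated start, on the gene's own strand, with the longest run of C and T near the start in capitals. The windows lie at chr5:115559417-115559486 (plus strand, Rplp0), chr7:141447601-141447670 (plus, Rplp2), chr7:99483690-99483759 (minus, Rps3), chr4:86857348-86857417 (minus, Rps6), chr7:116334171-116334240 (minus, Rps13) and chr11:114668530-114668599 (plus, Rpl38).
Rplp0: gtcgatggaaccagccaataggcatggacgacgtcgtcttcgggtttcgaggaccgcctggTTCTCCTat
Rplp2: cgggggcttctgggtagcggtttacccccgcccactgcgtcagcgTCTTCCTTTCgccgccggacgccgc
Rps3: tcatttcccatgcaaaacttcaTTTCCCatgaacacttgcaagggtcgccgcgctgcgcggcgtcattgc
Rps6: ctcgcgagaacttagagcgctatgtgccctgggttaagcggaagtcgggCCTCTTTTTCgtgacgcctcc
Rps13: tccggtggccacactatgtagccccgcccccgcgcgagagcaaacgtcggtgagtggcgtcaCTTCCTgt
Rpl38: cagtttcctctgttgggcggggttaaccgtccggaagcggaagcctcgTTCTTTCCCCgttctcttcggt

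The run spans the annotated start in Rplp2, Rps6 and Rpl38, with 10 pyrimidines in each, and lies before or after it in the other windows, with 6 or 7. Of the 45 genes 38 had at least 1 promoter in the table. A run of at least 8 consecutive C or T letters within 30 bases of a start was found for 19 of the 38 (50%), against 25.8% of all 27025 genes in the table. A C at the start itself with 4 pyrimidines after it was found for 8 (21.1%), against 3.01%. The heptamer CCGGAAG, the core bound by ETS family factors, was searched on both strands over the 300 bases of the table, and was found for 16 (42.1%), against 9.93%. Its reverse complement can overlap a pyrimidine run by 5 letters. Rplp2, with the lowest gene ratio, and Rps6, with the highest, both have a tract at the start and the heptamer, so these letters do not separate them. A match describes the sequence only.

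On SubA the strong ribosomal protein signals were nearly equal in both kinds of cells, which did not hold on SubC. On SubA 18 probe sets of 17 genes had a geometric mean signal of 10000 or more, a limit chosen after the data were seen, and their log2 ratios ran from -0.05 to 0.24, with a median of 0.03 and an SD of 0.07. The farthest from 0, Rps7, was 1.18-fold higher in CM cells. The 80 other SubA probe sets above that limit, without controls, had a median of 0.02, an SD of 0.26 and a range of -1.33 to 0.89. Their signals reached lower than those of the 18, down to 8145.7 in CM and 8057.6 in E/EM cells. The part of signal strength in the wider spread was not tested. Of those 80, 2 were past 1.5-fold, against 0 of the 18. With the limit at 5000 the SD was 0.07 over 20 members and 0.32 over 262 others. Among weaker signals the members were not clearly tighter. On SubA under 5000, 15.4% of 13 members and 19.1% of 7597 others differed by at least 1.5-fold. On SubC the shares were 25% of 4 members and 44.7% of 123 others from 10000 up, and 80% of 5 members and 39.4% of 4539 others under 10000. Signals of the 18 ran from 14323.0 to 27923.4 in CM cells and from 14843.0 to 26702.9 in E/EM cells, and the highest of each, both of Rpl41, are the highest values of their arrays. Whether signals are compressed at the top of the scale was not tested.

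**Figure D2:**
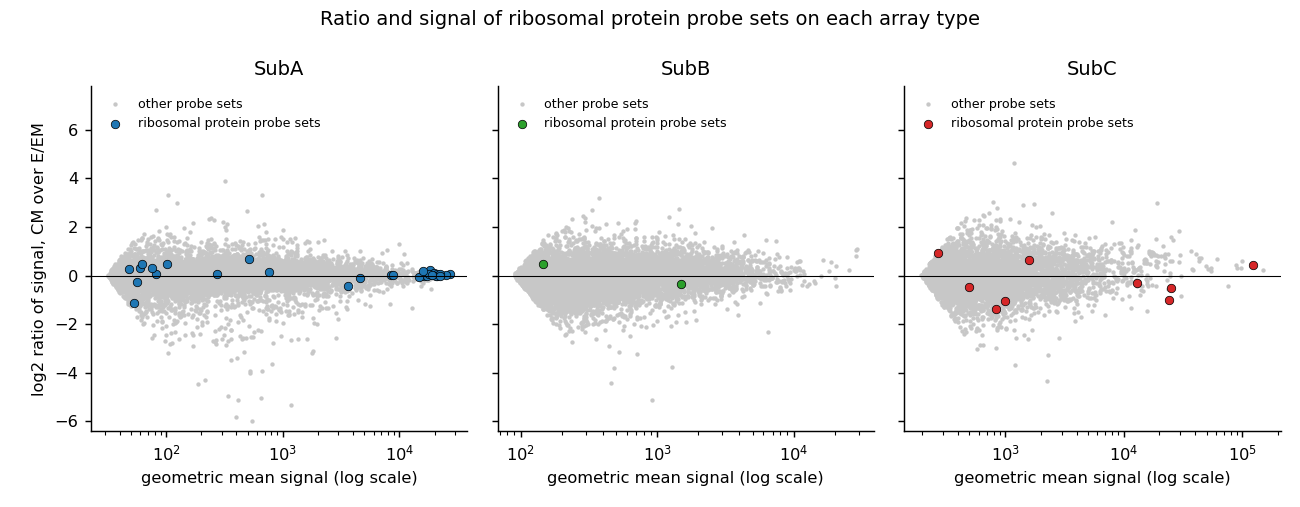
Log2 ratios, CM over E/EM (y axis), against the geometric mean of both signals (x axis, log scale) for measured probe sets, 1 panel per array type; grey points are other probe sets and coloured points the 33, 2 and 9 ribosomal protein probe sets. On SubA the members crowd at the right end along 0, and on SubC they scatter from -1.38 to 0.92.

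Among the large subunit genes of this strong group, Rpl41, which encodes the smallest ribosomal protein, had 27923.4 in CM and 26702.9 in E/EM cells. Rpl8, whose protein lies near the peptidyl transferase centre, had 21303.2 in CM and 20414.1 in E/EM cells. Rpl7 had 18330.4 in CM and 17670.9 in E/EM cells, Rpl6 had 16918.4 in CM and 17279.3 in E/EM cells, and Rpl7a had 14323.0 in CM and 14843.0 in E/EM cells. In each of these the signals of the kinds of cells were almost equal.

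For the small subunit, Rps18, a protein of the head of the subunit, had 22193.9 in CM and 22212.7 in E/EM cells. Rps3a1 had 20935.2 in CM and 21351.8 in E/EM cells, and Rps4x had 19498.1 in CM and 19355.8 in E/EM cells. The small subunit genes with the largest ratios of the strong group were Rps7, at 19834.2 in CM and 16754.5 in E/EM cells, and Rps10, at 16955.0 in CM and 15087.8 in E/EM cells. Rps7 protein is known to bind the p53 regulator MDM2, and Rps10 lies at the mRNA channel. Rps19, mutated in Diamond-Blackfan anaemia in humans, had 20384.0 in CM and 18911.6 in E/EM cells, a log2 ratio of 0.11. Rpsa, which also serves as a laminin receptor, had weaker signals of 8965.9 in CM and 8777.2 in E/EM cells, with a ratio of 0.03.

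The P stalk of the large subunit, which recruits and stimulates elongation factors, is made of Rplp0 and pairs of Rplp1 and Rplp2. Rplp0 had signals of 25247.3 in CM and 25185.3 in E/EM cells on SubA, a ratio of 0.00. Its SubC probe set had 21055.1 in CM and 29805.6 in E/EM cells, a ratio of -0.50, and a further SubC probe set lay under the floor. The gene value of Rplp0 was -0.25 ± 0.36 (SD, 2 probe sets). The 2 array types therefore gave Rplp0 different answers, with no difference on SubA and a 1.42-fold lower CM signal on SubC. Rplp2 was measured by 1 SubC probe set, with 16811.2 in CM and 33898.9 in E/EM cells, a ratio of -1.01. Rplp1 had no probe set of its own name, and neither had Rpl5 and Rpl11 of the 5S particle, Rpl3, Rpl4, Rpl10 and Rpl17 near the peptidyl transferase centre and exit tunnel, Rps2 and Rps23 of the decoding side, Rpl22l1 or Rps27a. The 123 other SubC probe sets of at least 10000 had a median of 0.39 and an SD of 0.65, against a median of -0.40 over the 4 members of that strength, Rplp0, Rplp2, Rps20 and Rps26. After quantile normalization, which gives both arrays the same distribution, Rplp2 had -1.54, Rps26 -0.63 and Rps20 0.00.

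Rps3, a protein of the mRNA entry channel that also takes part in DNA repair, gave the widest split of the small subunit. Its SubA probe set had 18918.9 in CM and 17792.6 in E/EM cells, a ratio of 0.09. The SubC probe sets had 517.1 in CM and 1343.7 in E/EM cells, and 694.8 in CM and 1417.1 in E/EM cells. Those ratios, -1.38 and -1.03, are past 2-fold, while the SubA probe set showed almost equal signals. The gene value was -0.77 ± 0.77 (SD, 3 probe sets), so Rps3 has no settled value, and its brightest probe set alone gives 0.09.

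The 3 SubC probe sets past 2-fold, 1 of Rplp2 and 2 of Rps3, share a mark in their IDs, _i_at, which the array maker gives to probe sets that fall short of its full probe design. Over all 416 measured SubC probe sets so marked the median ratio was -0.20 and the SD 0.85, with 14.4% at least 2-fold lower in CM cells. Over the 2920 unmarked ones the median was 0.00 and the SD 0.72, with 7.19% at least 2-fold lower. What part this design plays in the 3 ratios was not tested. An ID mark of this or another kind (_f, _s, _i, _r or _g before _at) was carried by 16 of the 44 measured members. These are called shared probe sets further on, and all 4 SubC members of at least 10000 are among them. By probe set, 4 of the 44 measured members were at least 2-fold lower in CM cells, where 5.65% of all named probe sets were, and 0 were at least 2-fold higher, where 3.96% were.

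**Figure D3:**
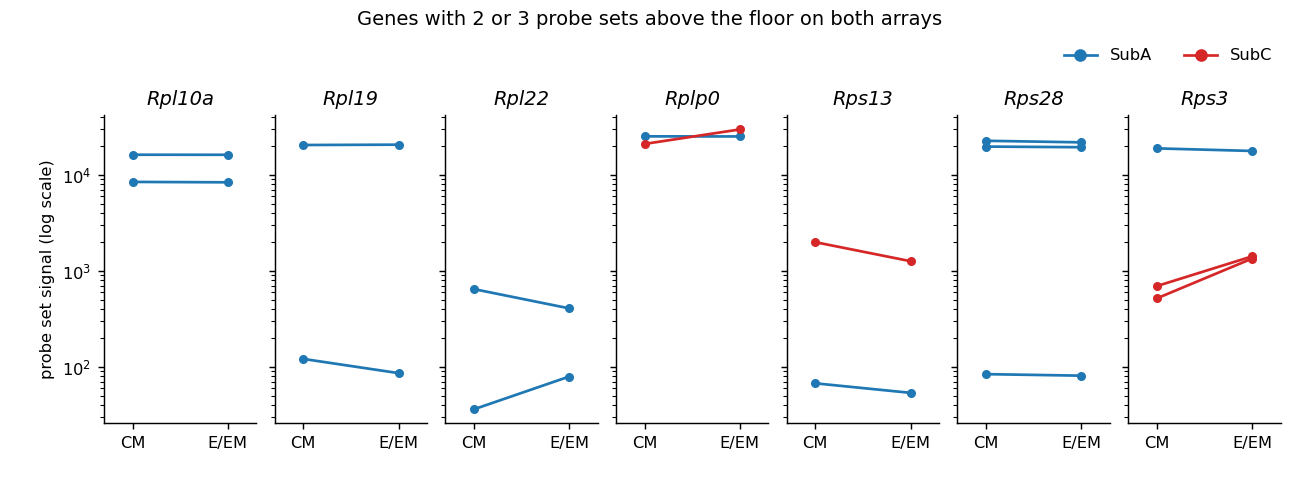
Signals in CM and E/EM cells (y axis, log scale) of the 7 genes with 2 or 3 probe sets above the floor on both arrays; each line is 1 probe set, coloured by array type. The lines of Rpl10a and Rps28 are nearly flat, those of Rps3 and Rplp0 differ between SubA and SubC, and those of Rpl22 run in opposite directions.

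Rpl22, whose protein is needed for the development of alpha-beta T cells in mice but not for protein synthesis as such, had probe sets of opposite sign. The stronger one had 646.7 in CM and 407.6 in E/EM cells, a ratio of 0.67, or 1.59-fold higher in CM cells. The weaker one had 36.2 in CM and 79.4 in E/EM cells, a ratio of -1.13, with its CM signal only 1.16 times the floor. A SubC probe set of Rpl22 lay under the floor on both arrays. The mean, -0.23 ± 1.27 (SD, 2 probe sets), has no settled direction, and with the floor doubled only the stronger probe set remains.

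The probe sets of Rps28 and of Rpl10a gave nearly equal ratios. Rps28 had 3 ratios from 0.02 to 0.05, though their signals ran from 84.1 to 22694.4 in CM cells and from 81.1 to 21866.8 in E/EM cells. Rpl10a had 16245.5 in CM and 16224.2 in E/EM cells by 1 probe set, and 8463.9 in CM and 8381.6 in E/EM cells by the other. Rpl19 had 20511.1 in CM and 20681.5 in E/EM cells by its strong probe set, and 121.2 in CM and 86.2 in E/EM cells by its weak one, so its ratios, -0.01 and 0.49, were as far apart as those of Rplp0. Over the 7 member genes with more than 1 measured probe set the median SD was 0.356, against 0.321 over all such genes, and in 4 of the 7 the signs differed. For Rplp0 and Rpl19 the sign of the strong SubA probe set rests on nearly equal signals. In how many of all such genes the signs differed was not counted. Of 17 genes with several probe sets, 10 had some probe sets above the floor and others not. For Rps4x, 1 of 5 probe sets was above the floor on both arrays.

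The highest gene ratio was that of Rps6, and the other genes described here had ratios from 0.31 to 0.49. Rps6, the classic substrate of the S6 kinases downstream of mTORC1, had 369.8 in CM and 195.1 in E/EM cells on SubC, a ratio of 0.92. The E/EM signal was barely above the floor of 194.34, so the size of that ratio is uncertain. Rps13 had 1993.9 in CM and 1263.7 in E/EM cells on SubC and 67.5 in CM and 53.7 in E/EM cells on SubA, with a gene value of 0.49 ± 0.23 (SD, 2 probe sets). Only 3 member genes were measured on more than 1 array type, and of these Rps13 alone had ratios of 1 sign and at least 0.3 on each. Its weaker SubA signal was 1.72 times the floor, and with the floor doubled only the SubC probe set remains. Rps20, a head protein, had 142173.2 in CM and 105690.8 in E/EM cells on SubC, a ratio of 0.43, which was 0.00 after quantile normalization. The other Rps20 probe sets lay under the floor on both arrays. Rpl27 had 170.6 in CM and 124.2 in E/EM cells on SubB, a ratio of 0.46, and Rps29 had 84.6 in CM and 68.4 in E/EM cells on SubA, a ratio of 0.31. The weaker signal was only 1.41 times the floor for Rpl27 and 2.19 times for Rps29.

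At the low end, after Rplp2 and Rps3, came Rps14, Rpl13a and Rps26, all under 1.5-fold. Rps14 had 424.1 in CM and 588.0 in E/EM cells on SubC, a ratio of -0.47, while its SubA probe set lay under the floor on both arrays. Rpl13a, which in human myeloid cells can leave the ribosome and silence inflammatory mRNAs, had 3093.7 in CM and 4198.8 in E/EM cells, a ratio of -0.44. Its weaker signal was 98.9 times the floor, so it is the best measured of these differences, at 1.36-fold lower in CM cells. Rps26, a protein of the mRNA exit side, had 11640.1 in CM and 14241.9 in E/EM cells, a ratio of -0.29. Rps19bp1 had 1319.2 in CM and 1697.1 in E/EM cells, a ratio of -0.36.

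Of the bounds, 1 reached 2-fold. The share of all probe sets with such a bound was not counted, so neither this count nor the direction of the bounds is read as particular to the members. Rpl13, a large subunit protein, had 976.3 in E/EM cells and lay under the SubC floor in CM cells, where its signal was 134.4, so its probe set was at least 5.02-fold lower in CM cells. The next largest bounds in that direction were at least 1.80-fold for a weak Rps4x probe set, at least 1.78-fold for Rps27l, at least 1.75-fold for a SubC probe set of Rpl38 and at least 1.68-fold for Rpl3l. Rpl39 was the 1 gene bounded the other way, at least 1.46-fold higher in CM cells. Rpl38, known in mice for its role in translating Hox mRNAs, also had a SubA probe set with 53.0 in CM and 44.1 in E/EM cells, a ratio of 0.27, so its probe sets on the 2 array types pointed opposite ways. The weaker SubA signal was only 1.41 times the floor, and the SubC probe set carries the _i_at mark, so the gene has no settled direction.

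Paralogues of ribosomal proteins gave low signals, which were not particular to them, as probe sets of Rpl38 and Rps29 were also low. Rpl3l, a paralogue of striated muscle, and Rpl10l, one of the testis, were above the floor in E/EM cells only, where Rpl3l had 327.4 and Rpl10l 212.3 against a floor of 194.34. The other Rpl3l probe set was under that floor on both arrays, with 112.2 in CM and 121.6 in E/EM cells. Rpl39l, also known from mouse testis, had 51.9 in CM and 61.9 in E/EM cells, a ratio of -0.25. Rps4l had 72.7 in CM and 52.4 in E/EM cells, a ratio of 0.47, and a second probe set that passed the floor in E/EM cells alone. Rpl7l1 had 280.9 in CM and 270.1 in E/EM cells, a ratio of 0.06. Rps27 had 806.8 in CM and 727.1 in E/EM cells, a ratio of 0.15, whereas its paralogue Rps27l, a p53 target in human cells, had 183.3 in CM and 345.2 in E/EM cells, of which the CM value was under the floor.

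The 18S rRNA control probe sets, which report on the RNA of the small subunit, were lower in CM cells on all 3 array types. All 9 of them had a negative ratio, from -1.5 to -0.23, with a median of -0.74. Those for the 3′ end had 293.0 in CM and 392.5 in E/EM cells on SubA. On SubB the same region had 963.5 in CM and 1129.2 in E/EM cells, and on SubC it had 1690.1 in CM and 3145.4 in E/EM cells. Those for the 5′ end differed more, with 167.4 in CM and 298.6 in E/EM cells on SubA, a ratio of -0.83, and with ratios of -0.81 on SubB and -1.5 on SubC. The 3′/5′ signal ratio of 18S rRNA was thus 1.75 in CM and 1.31 in E/EM cells on SubA, 2.01 in CM and 1.35 in E/EM cells on SubB, and 1.77 in CM and 1.16 in E/EM cells on SubC. The part of this difference in the ribosomal protein values was not tested. Mature 18S rRNA has no poly(A) tail, and the labels name total RNA but not the labelling step. The 9 probe sets read 1 RNA species, the 3 arrays of a kind may carry the same RNA, and what share of total rRNA these signals stand for was not tested.

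Genes that work with the ribosome were set beside its proteins. Of 19 genes for elongation factors and other TOP mRNAs on the arrays 18 were measured, and all 18 lay within 1.5-fold, with a median of -0.06 and a range of -0.52 to 0.45. Eef1a1, which brings aminoacyl-tRNAs to the ribosome, had 25275.8 in CM and 24568.6 in E/EM cells, a ratio of 0.04. Eef2, the translocation factor, had -0.30 ± 0.34 (SD, 2 probe sets), and Tpt1, a classic TOP mRNA, had -0.01. Fau, which encodes a small subunit protein as a fusion and is no member by name, had 46.3 in CM and 49.3 in E/EM cells, a ratio of -0.09.

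Ribosome biogenesis genes lay slightly above 0, with a median of 0.10 over 64 measured of 65 genes, 43 above 0 and 21 below. At least 2-fold higher in CM cells was 1, Rrp12, a pre-ribosome export factor, at 1.05 ± 0.36 (SD, 2 probe sets), and 0 were at least 2-fold lower, where 2.73% of all measured genes were higher and 5.61% lower. The nucleolar helicases Ddx21 and Ddx18 had 0.96 ± 0.64 and 0.77 ± 0.31 (SD, 2 probe sets each), and Rrp15 had 0.78 by 1 probe set. Ncl, nucleolin, had 0.51 ± 0.75 (SD, 3 probe sets). Its probe sets ran from -0.21 to 1.29, and the brightest had 12109.2 in CM and 13963.2 in E/EM cells, so Ncl has no settled direction. Fbl, the rRNA methyltransferase, had 5133.7 in CM and 4275.4 in E/EM cells, a ratio of 0.26. At the other end Rrp9 had -0.75 ± 0.85, Taf1b -0.73 ± 1.29 and Nop56 -0.58 ± 0.27 (SD, 2 probe sets each).

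The mTORC1 and S6 kinase genes had a median of -0.03 over 26 measured of 28 genes, 12 above 0 and 14 below. At least 2-fold lower in CM cells were 2 of them and 0 were at least 2-fold higher, where 5.61% of all measured genes were lower and 2.73% higher, so these counts are near the background. Eif4ebp1, the translation repressor that mTORC1 inactivates, had 246.4 in CM and 754.2 in E/EM cells, a ratio of -1.61. Ddit4, an inhibitor of mTORC1, had 1681.0 in CM and 4914.9 in E/EM cells, a ratio of -1.55. The paralogue Eif4ebp2 had 0.84 ± 0.75 (SD, 3 probe sets) and the kinase gene Rps6ka3 had 6539.8 in CM and 3735.7 in E/EM cells, a ratio of 0.81. The other measured kinase genes named Rps6k did not share 1 value, with 0.67 ± 0.69 for Rps6ka5 (SD, 2 probe sets) and -0.14 for Rps6kb2. Rps6kb1 had no probe set of its own name. Mtor had -0.30 ± 0.27 (SD, 2 probe sets) and Larp1, which binds TOP tracts, -0.11 ± 0.28 (SD, 4 probe sets). These are mRNA signals and do not measure kinase activity or translation.

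**Figure D4:**
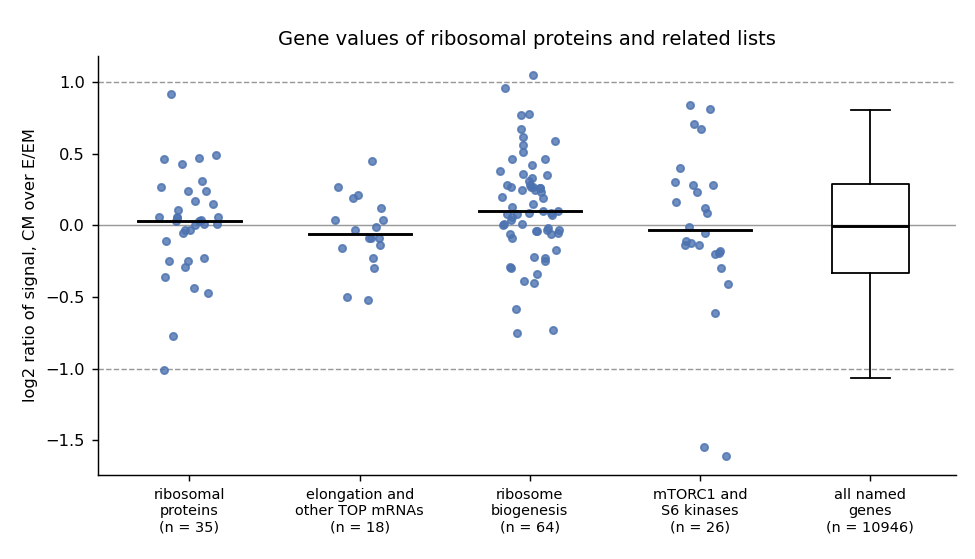
Gene log2 ratios, CM over E/EM (y axis), for the 35 measured ribosomal protein genes and 3 related lists; points are genes, black bars medians, and dashed lines 2-fold. The box shows all 10946 measured genes, with its median, quartiles and whiskers at the 5th and 95th percentiles; the list medians lie between -0.06 and 0.10.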

How the data were processed

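The deposited values are linear signal intensities of probe sets, 1 table per array type; the labels do not say how the authors made them, and names of software are not given in the sources used. The trimmed means, without the lowest and highest 2%, lay between 500.1 and 500.3 on the 6 arrays, so the values were used as deposited. Symbols were those of the platform annotation at GEO; only probe sets with exactly 1 symbol were assigned to a gene, and controls were left out. The floor was the higher of both arrays' 90th percentiles over 15 bacterial controls. A gene's value was the mean log2 ratio over its probe sets above the floor on both arrays, with the SD over probe sets, which is technical. With 1 array per group no test was made, and genes were counted by a 2-fold rule.

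Members, lists and the naming rule were chosen with earlier results of these data known. Named were genes with a probe set or bound past 2-fold, the 6 highest and 6 lowest, the 4 with the widest range, and members by role. Python 3.11.15, numpy 2.4.6 and pandas 2.3.3 were used. The calculation was tested on simulated arrays, where it recovered the sign of 100% of 134 changed genes among 12007 measured. The 134 are the changed genes that were above the floor. All planted changes were larger than any ratio of a ribosomal protein gene here. The test therefore checks the direction of the calculation and says nothing about ratios of the size reported. The 11 alternatives changed normalization, floor, probe sets, array types, members or fold rule.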

Additional observations from a re-analysis of the deposited data

How the results depend on the processing

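The median of the ribosomal protein genes lay between -0.03 and 0.05 under 10 alternatives, and those of the large and small subunit genes between -0.11 and 0.01 and between 0.03 and 0.11. Of 99 recomputed summaries 87 moved by less than the limit set for them. For medians that limit was 0.321, the median SD between probe sets of a gene, which a median over many genes can hardly reach. All summaries that moved past their limit were counts, shares or SDs. The count of genes at least 2-fold lower was 0 with each table centred, without shared probe sets, on SubA alone and on SubA with SubB, 3 with the floor halved (Rplp2, Rpl13 and Rpl10l), and 2 under a 1.5-fold rule, which also gave 1 higher. The share within 1.5-fold was 100% on SubA alone and without SubC, where the SD over genes was 0.19 and 0.21, and the SD was 0.61 with the floor halved. Leaving out SubC removes 5 of the 35 genes and the measured probe sets of Rplp2 and Rps6. Of 160 recomputed values of 19 named genes 152 moved by less than the probe set spread, and Rplp2 kept its sign in each of its 7. For genes with several measured probe sets this spread was their own SD, which is a wide limit where probe sets disagree. Rpl22 thus counts as unmoved although it went from -0.23 to 0.67 with the floor doubled. Rps4l had -0.19 with the floor halved, and Rps3 had 0.09 on its brightest probe set, without shared probe sets and without SubC. The number of arrays, 1 per group and array type, limits every value, and signals near the floor or at the top of the scale limit single ratios.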

Other observations

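The single-symbol rule leaves out many ribosomal protein probe sets. Of 89 protein-coding genes in the RefSeq table that meet the naming rule, 44 have a member probe set, 30 appear only on probe sets whose annotation lists several symbols, often pseudogenes, and 15 appear on neither. There are 52 such probe sets with several symbols, 39 on SubA, 5 on SubB and 8 on SubC, and no gene is named from them. Above the floor on both arrays were 44, with a median log2 ratio of 0.03 and 38 within 1.5-fold. The 23 of them with a SubA signal of at least 10000 ran from -0.21 to 0.17, with an SD of 0.09. Past 2-fold were 3: a SubA probe set with 87.6 in CM and 380.1 in E/EM cells, and SubC probe sets with 204.5 in CM and 728.5 in E/EM cells and with 582.5 in CM and 197.0 in E/EM cells. The weaker signals of the SubC ones were 1.05 and 1.01 times the floor.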
